A study of Mus musculus with 9 samples.

Results

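The genes described here encode the machinery that carries proteins made in the cytosol into mitochondria, the TOM and TIM translocases with their assembly factors, as measured in testes of mice with and without Pfn3, the gene of a testis profilin. The set was chosen by name from the deposited gene table: protein-coding rows whose symbol starts with Timm or Tomm and a digit, and the partner genes Pam16, Dnlz, Grpel1, Grpel2, Samm50, Mtx1, Mtx2, Chchd4 and Gfer. It holds 33 of the 38674 genes in the table, of which 21019 are protein-coding. The rule used names and gene type only, but it was set with earlier results of these data known. Of the 33 genes, 32 had signal and Tomm40l was listed at 0 in all 9 animals. Timm10b was not analysed here.

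RNA came from testes, freed of the tunica albuginea, of male C57BL/6 mice, 3 Pfn3+/+ (WT), 3 Pfn3+/- (Het) and 3 Pfn3-/- (KO). All mutant animals carry CRISPR/Cas9 deletions that shift the reading frame of Pfn3. The males were adult, as the study's methods say of all its experiments. The deletion line or lines behind these libraries and whether litters were shared are not given in the sources used here. Libraries were QuantSeq, a method that reads transcripts with a poly(A) tail close to their 3′ ends. The values, called normalized counts, are counts per gene after division by a size factor that is specific to each animal.

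Most mitochondrial proteins are encoded in the nucleus and enter through the TOM complex of the outer membrane. From there, proteins of the outer membrane with a barrel fold pass to the sorting and assembly machinery, proteins of the intermembrane space are trapped by disulfide bonds, carrier proteins go through the TIM22 complex, and proteins with a presequence go through the TIM23 complex, pulled by a motor built on mitochondrial Hsp70. In the testis, germ cells remodel their mitochondria as they mature, and in sperm the mitochondria form a sheath around the midpiece of the tail.

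The promoters of 5 genes are shown first, since Timm17b was the only import gene that passed the cutoffs in any comparison and since Mtx1, Mtx2, Timm10 and Timm23 had wide gaps between single animals. Timm17b passed in KO against Het, where it entered the limma test only through its 3 high KO animals. Each runs 5′ to 3′ from 250 bases before to 50 bases after the RefSeq transcript start of GRCm38.p6. Capitals mark exact matches, on either strand, to the ETS site CCGGAAGT or the YY1 site AAGATGGCG. The windows are chrX:7899086-7899385 on the plus strand for Timm17b, chr3:89213858-89214157 on the minus strand for Mtx1, chr2:74825562-74825861 on the plus strand for Mtx2, chr2:84826771-84827070 on the plus strand for Timm10 and chr14:32201842-32202141 on the minus strand for Timm23.
Timm17b: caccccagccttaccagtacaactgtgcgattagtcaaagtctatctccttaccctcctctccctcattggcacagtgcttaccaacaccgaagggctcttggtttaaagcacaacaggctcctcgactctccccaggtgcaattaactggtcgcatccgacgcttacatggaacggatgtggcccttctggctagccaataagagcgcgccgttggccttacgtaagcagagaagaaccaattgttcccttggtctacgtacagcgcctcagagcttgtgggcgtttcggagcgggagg
Mtx1: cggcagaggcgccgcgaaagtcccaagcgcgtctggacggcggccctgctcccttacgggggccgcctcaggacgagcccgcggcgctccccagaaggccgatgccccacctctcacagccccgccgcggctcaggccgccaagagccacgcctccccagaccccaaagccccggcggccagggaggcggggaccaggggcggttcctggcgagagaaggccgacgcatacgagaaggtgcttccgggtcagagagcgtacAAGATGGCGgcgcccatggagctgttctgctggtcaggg
Mtx2: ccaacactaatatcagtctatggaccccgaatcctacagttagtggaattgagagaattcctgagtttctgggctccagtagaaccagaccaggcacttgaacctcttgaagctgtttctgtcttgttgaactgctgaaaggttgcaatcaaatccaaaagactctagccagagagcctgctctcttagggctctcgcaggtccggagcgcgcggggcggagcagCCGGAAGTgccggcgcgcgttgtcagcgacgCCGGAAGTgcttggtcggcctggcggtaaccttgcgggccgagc
Timm10: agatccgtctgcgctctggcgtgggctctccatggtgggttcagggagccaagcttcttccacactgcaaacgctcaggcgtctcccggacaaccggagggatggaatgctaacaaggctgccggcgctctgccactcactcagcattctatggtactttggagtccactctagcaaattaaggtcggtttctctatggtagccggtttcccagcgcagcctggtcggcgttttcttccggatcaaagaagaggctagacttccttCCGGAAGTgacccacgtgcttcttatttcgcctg
Timm23: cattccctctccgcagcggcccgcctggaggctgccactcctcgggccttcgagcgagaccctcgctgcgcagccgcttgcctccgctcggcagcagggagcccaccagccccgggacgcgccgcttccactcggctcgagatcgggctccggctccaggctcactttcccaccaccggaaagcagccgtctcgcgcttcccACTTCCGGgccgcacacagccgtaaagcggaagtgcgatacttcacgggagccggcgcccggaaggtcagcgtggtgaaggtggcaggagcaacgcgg

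Promoters were matched by symbol for 29 of the 33 genes. The ETS site was found in 6 of these 29 windows (20.7%), those of Mtx2, Timm10, Timm23, Timm29, Timm8a2 and Tomm70a, and in 4% of 27025 RefSeq promoter windows of the same length. The YY1 site was found in 2 windows (Mtx1 and Timm50; 1.49% of all windows), the NRF1 core GCGCATGCG in 1 (Timm13; 1.81%), the TATA box TATAAA in 2 (Timm13 and Tomm5; 14.2%) and the CRE TGACGTCA in 0 (1.88%). None of the 5 motifs was found in the Timm17b window. A match is a description of the letters and was not compared with binding.

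The libraries held 3375546 to 4287335 reads on genes, and a count of 3 reads, used as the floor, stood for 2.58 to 3.71 normalized counts, a limit that covers counting error only. Reads of Pfn3 were still counted in the KO animals (74.7, 215 and 279 normalized counts, against 592, 383 and 373 in WT). All 3 KO animals were below all 3 WT animals (10.5% of all genes tested). The Het animals were at 136, 339 and 326, with Het animal 1 below KO animals 2 and 3. Where the counted reads lie relative to the deletions was not examined here, so this level was not used as a check of the labels. WT animal 1 stood apart from the other libraries, with a rank correlation of 0.786 to 0.815 over genes to each of them, while the other 8 animals had 0.829 to 0.941 among themselves. It was the lowest of the 9 animals for 10 of 32 import genes and the highest for 6, where the shares over all 14165 genes with a mean of at least 10 were 25.9% and 26.1%. The summed elongating spermatid markers (Tnp1, Tnp2, Prm1 and Prm2) ran from 233289 to 249362 in WT, 179063 to 214894 in Het and 123388 to 199672 in KO, and the round spermatid markers (Acrv1, Spaca1, Catsper3 and Tssk2) from 4701 to 6335, 3886 to 4800 and 2352 to 4018. Single genes could depart from their sum. Spaca1 was at 331 to 707 in WT, 718 to 819 in Het and 384 to 665 in KO. Spermatocyte markers (Sycp1, Sycp3, Piwil1 and Hormad1) ran from 3735 to 4767 in WT, 3778 to 6065 in Het and 5394 to 6410 in KO, and Sertoli cell markers (Sox9, Wt1, Cldn11 and Rhox5) from 586 to 647, 860 to 952 and 790 to 1457. No gene of these 4 lists was at or under the floor in all animals, whereas the epididymal markers Lcn5, Crisp1 and Adam7 summed to 0 to 7.72. In bulk tissue, fewer cells of a type and less RNA per cell cannot be told apart, and the part of these shifts in the values below was not tested.

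KO against WT was the comparison that asks what loss of Pfn3 does to testis transcripts. None of the import genes passed both cutoffs, which were 0.05 for the adjusted p-value and 1.5 for the size of the log2 fold change. With limma on log2(normalized count + 1), 0 of the 32 genes tested were called, beside 0.0352% of all 14223 genes tested, and the lowest adjusted p among them was 0.610. DESeq2 on the recovered reads also called 0 of 32 (0.651% of all genes), and edgeR called 0. At an unadjusted limma p under 0.05 there was 1 import gene, Mtx1, where 8.07% of all genes passed. The log2 fold change was above 0 for 19 genes and below 0 for 13, with a median of 0.13 against 0.02 over all genes tested, and it lay within 1 of 0 for 30 of the 32. The median of the import genes was -0.077 without WT animal 1 and 0.38 without KO animal 2. The KO animals were all below the WT animals for 1 gene, Gfer (10.5% of all genes), and all above for 4 genes, Grpel2, Mtx2, Mtx1 and Timm8a1 (9.41%). As shares of the 32 genes these were 3.13% and 12.5%.

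In Het against WT, 31 import genes were tested, since Timm17b had too few animals with a value of at least 10. Limma called 0 of them and 0% of all 14216 genes, no import gene had an unadjusted p under 0.05 (3.34% of all genes), DESeq2 called 0 (0.184%) and edgeR 0. With DESeq2, Mtx1 and Timm17b had an unadjusted p under 0.05 (520 of all 23929 genes). The median log2 fold change was 0.03. Among the genes tested, all Het animals were below all WT animals for Timm10 (6.49% of all genes) and above for Timm9 (6.76%). The same held for the untested Timm17b, whose highest Het value of 8.50 lay just under the 8.67 of WT animal 1.

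Among the 32 genes tested in KO against Het, limma called 1, Timm17b (0.0558% of all 14343 genes), and DESeq2 called the same gene and no other import gene (0.233%). Timm17b reached the limma filter only through the 3 KO animals, in which it is high, and WT animal 1 shared the low Het level. Timm17b and Tomm6 were the 2 with an unadjusted p under 0.05 (3.56% of all genes). The median log2 fold change was 0.06. All KO animals were above all Het animals for 3 genes, Chchd4, Timm17b and Timm8a1 (5.12% of all genes), and below for 0 (4.9%). The 3 comparisons share animals, so their values are not independent of each other.

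**Figure D1:**
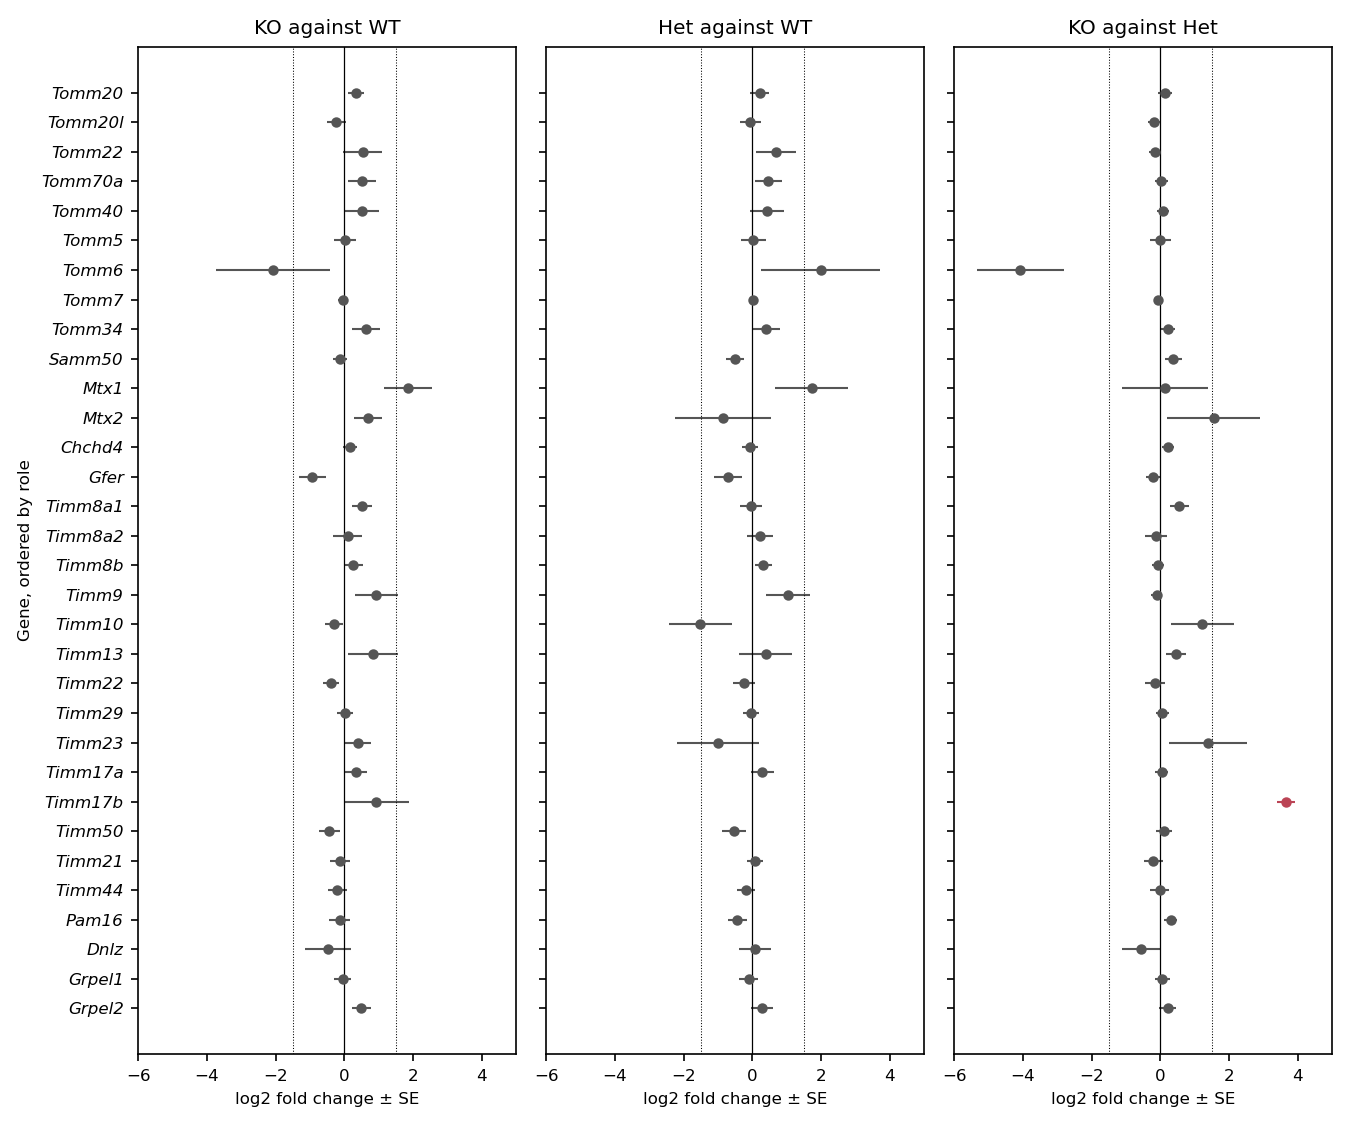
Log2 fold changes of the 32 import genes with signal, by role from top to bottom, for the 3 comparisons in separate panels (x axis, limma on log2(normalized count + 1); horizontal bars are 1 SE, dotted lines the cutoff of 1.5 in either direction, 3 animals per genotype). Timm17b in KO against Het, at 3.66, is the single point in red, which marks a call, and it has no point in Het against WT because it was not tested there. In KO against Het it entered the test only through the 3 KO animals, in which it is high.

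None of the 4 receptors of the TOM complex, which bind precursor proteins at the mitochondrial surface, passed the limma test in any comparison. Tomm22, the central receptor that also holds the complex together, was at 281, 1235 and 1051 normalized counts in WT, 1376, 1047 and 1066 in Het and 1096, 943 and 1067 in KO. The single low animal is WT animal 1, and the other 8 overlap across genotypes. In KO against WT its log2 fold change was 0.53 ± 0.56 (SE, n = 3 per genotype; limma adjusted p = 0.710) and turned to -0.14 without WT animal 1. Tomm70a, the receptor that takes precursors from cytosolic chaperones, had 458 in WT animal 1 and 934 to 1376 in the other 8.

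Tomm20, which recognises presequences, was at 172, 286 and 239 in WT, 346, 233 and 230 in Het and 308, 268 and 294 in KO. Tomm20l, its paralog, was at 312, 554 and 551 in WT, 379, 551 and 405 in Het and 342, 435 and 399 in KO. The genotypes overlap for both, and for Tomm20l it is WT animal 1 that brings the WT range down to that of KO. Tomm20l in KO against WT had a log2 fold change of -0.23 ± 0.28 (limma adjusted p = 0.747), and -0.50 without WT animal 1 (limma unadjusted p = 0.0284, adjusted p = 0.534). Tomm20l overlaps Timm9 on the opposite strand over 49 bases at their 3′ ends, where QuantSeq reads fall, and whether the counting used strand is not given in the sources used here.

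The channel gene Tomm40, which encodes the barrel through which precursors pass, was at 34.7, 116 and 122 in WT, 101, 117 and 102 in Het and 121, 106 and 110 in KO. Only WT animal 1 lies outside the range 101 to 122. Tomm40l, the paralog of Tomm40, had 0 reads in every library, which allows up to 2.58 to 3.71 normalized counts.

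Tomm7, a small subunit that regulates the stability of the complex, had the narrowest spread of the import genes, from 2492 to 3073 over the 9 animals. For KO against WT the estimate was -0.04 on the log2 scale, with a 95% interval from -0.40 to 0.32. Tomm5, another small subunit, ran from 27.0 to 48.2.

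Tomm6, the third small subunit, was the most uneven member. It was at 6.19, 505 and 39.6 normalized counts in WT, 533, 420 and 40.2 in Het and 7.73, 47.4 and 3.57 in KO, from 4 reads in KO animal 3 to 564 in Het animal 1. The values fall in a high group (WT animal 2 and Het animals 1 and 2) and a lower one of the other 6 animals, with a gap of 8.86-fold between them, so WT and Het each hold both kinds and KO only the lower kind. The log2 fold change in KO against Het was -4.08 ± 1.26 (limma unadjusted p = 0.0169, adjusted p = 0.973) and did not pass. The adjusted p was 0.0513 with DESeq2, and ran from 0.0513 to 1 over the alternatives. In KO against WT it was -2.09 ± 1.66 (limma adjusted p = 0.661), and -3.52 without WT animal 1. The gene lies on the minus strand of chromosome 17 from 47686646 to 47688386. There the annotation also has Usp49, Gm21981 and the antisense gene Tomm6os over some of the same bases. None of these 3 has a row in the table used here. Whether reads at this locus were split between genes was not tested.

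Tomm34, a cytosolic cochaperone of import, ran from 64.4 to 224, lowest in WT animal 1.

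**Figure D2:**
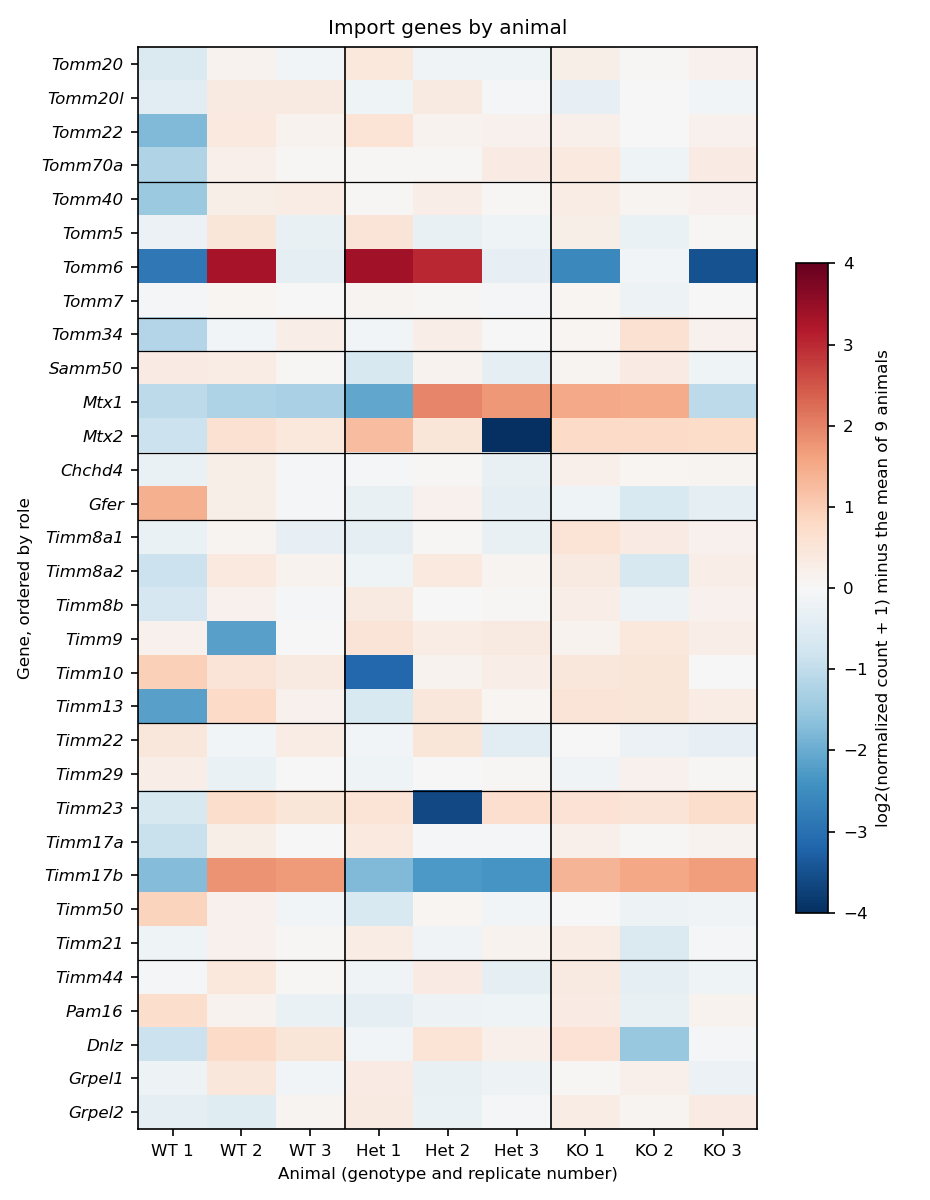
Levels of the 32 import genes with signal in each animal, as log2(normalized count + 1) minus the mean of the gene over the 9 animals (colour, red above and blue below the mean); rows are genes by role, separated by lines, and columns are animals by genotype. Deep single cells stand out for Mtx2 in Het animal 3, Timm23 in Het animal 2 and Timm10 in Het animal 1, and Timm17b is low in 4 animals and high in 5.

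The sorting and assembly genes held a pair of genes with wide gaps. Mtx1 encodes metaxin 1, a partner of the barrel protein Samm50. Mtx1 was at 73.0, 64.6 and 61.8 in WT, 35.9, 591 and 512 in Het and 441, 435 and 74.2 in KO. The WT animals were alike and all at the lower level, as were Het animal 1 and KO animal 3, while the other 4 animals were at 435 or above, 5.87-fold over the next value. In KO against WT the difference was 1.86 ± 0.70 on the log2 scale (95% interval 0.15 to 3.56, limma unadjusted p = 0.0372, adjusted p = 0.610), and the adjusted p ran from 0.0777 with DESeq2 to 0.814 over the alternatives. In Het against WT it was 1.73 ± 1.07 (limma adjusted p = 0.779), and in KO against Het 0.12 ± 1.25 (limma adjusted p = 0.998). Without Het animal 1 they were 3.03 ± 0.22 (limma unadjusted p = 3.08e-05, adjusted p = 0.154) and -1.18 ± 0.85 (limma adjusted p = 0.824). With DESeq2 they were 2.52 and -0.27 (adjusted p = 0.632 for the first), so the sign in KO against Het depends on the tool and on single animals. The gene lies on the minus strand of chromosome 3 from 89209081 to 89227088 and overlaps Thbs3 over 11658 bases and Gm43737 over 2740 bases. Thbs3 (28.9 to 50.8) and Gm43737 (2.79 to 18.4) had no such gap, and with their values added to those of Mtx1 the KO against WT value was 1.54 (limma adjusted p = 0.610).

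Mtx2, the gene of metaxin 2, was at 58.2, 163 and 146 in WT, 253, 150 and 5.29 in Het and 185, 182 and 178 in KO. Het animal 3 had 5 reads, 11.0-fold under the next animal, and all 3 KO animals were just above the highest WT animal. Of all genes tested, 9.41% had every KO animal above every WT animal. KO against WT gave a log2 fold change of 0.70 ± 0.41 (limma adjusted p = 0.637). Samm50, the barrel of the sorting and assembly machinery, ran from 241 to 295 in WT, 152 to 260 in Het and 210 to 294 in KO.

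The disulfide relay has 2 members. Gfer, the sulfhydryl oxidase that recharges the relay, was at 3179, 1382 and 1150 in WT, 951, 1339 and 906 in Het and 1041, 772 and 916 in KO. It was the only import gene with every KO animal under every WT animal (3.13% of the 32, beside 10.5% of all genes tested). The highest value was again that of WT animal 1. In KO against WT its log2 fold change was -0.93 ± 0.40 (limma unadjusted p = 0.0577, adjusted p = 0.610) and -0.48 without WT animal 1 (limma unadjusted p = 0.0494, adjusted p = 0.560). Chchd4, the oxidoreductase that oxidises incoming proteins, ran from 81.5 to 118 over all animals, and in KO against WT it differed by 0.17 ± 0.21 on the log2 scale (limma adjusted p = 0.756).

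The small TIM proteins chaperone membrane proteins across the intermembrane space, Timm9 with Timm10 and the Timm8 proteins with Timm13. Timm9 was at 120, 23.2 and 109 in WT, 153, 131 and 138 in Het and 119, 143 and 130 in KO. The low value is WT animal 2, 4.71-fold under the next, and the other WT animals lie near KO animal 1. Timm10 was at 144, 105 and 94.6 in WT, 7.56, 81.0 and 88.9 in Het and 102, 104 and 73.3 in KO. Here Het animal 1, with 8 reads, was 9.70-fold under the next. So the low animal differed between these partner genes, and neither log2 fold change in KO against WT (0.93 ± 0.63 for Timm9 and -0.29 ± 0.26 for Timm10) passed the test (limma adjusted p = 0.643 and 0.677).

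Timm13 was at 37.1, 287 and 190 in WT, 111, 233 and 179 in Het and 244, 235 and 208 in KO, lowest in WT animal 1. Timm8a1, on the X chromosome, was at 16.1, 21.2 and 15.4 in WT, 15.1, 20.5 and 15.9 in Het and 29.2, 25.2 and 22.3 in KO. All KO animals were above all WT and all Het animals, by 0.52 ± 0.29 and 0.55 ± 0.27 on the log2 scale (limma adjusted p = 0.630 and 0.973). Such a separation was seen for 9.41% of all genes tested against WT and 5.12% against Het. Its paralog Timm8a2 was at 63.1, 151 and 126 in WT, 102, 152 and 124 in Het and 148, 72.6 and 137 in KO, with overlap between all genotypes. Timm8b ran from 857 in WT animal 1 to 1734 in Het animal 1.

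The TIM22 complex inserts carrier proteins into the inner membrane. Timm22, its channel, ran from 57.1 to 111, and Timm29, a subunit of the complex, from 82.0 to 121. Timm29 differed by 0.03 on the log2 scale in KO against WT, with a 95% interval from -0.53 to 0.60, and Timm22 by -0.38 ± 0.24 (limma adjusted p = 0.641).

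Timm17b, called in KO against Het, passed the filter there only through the 3 KO animals, in which it is high. It encodes a subunit of the TIM23 complex, and lies on the plus strand of chromosome X from 7899357 to 7908351. Its level was 8.67, 111 and 104 normalized counts in WT, 8.50, 5.59 and 5.29 in Het and 81.6, 92.9 and 101 in KO, from 7, 115 and 108 reads, 9, 6 and 5 reads and 95, 96 and 113 reads. The 3 Het animals and WT animal 1 were at the low level and the other 5 animals at the high one, with a gap of 9.41-fold and no value between. The log2 fold change in KO against Het was 3.66 ± 0.27 (95% interval 2.99 to 4.32, n = 3 per genotype, limma adjusted p = 0.0262; DESeq2 adjusted p = 4.00e-13, edgeR adjusted p = 0.0313). In KO against WT it was 0.93 ± 0.95 (limma adjusted p = 0.703), or -0.23 ± 0.19 without WT animal 1 (limma adjusted p = 0.684). Het against WT had no test at the filter used. With no filter its log2 fold change was -2.73 ± 0.98 (limma adjusted p = 0.794), and DESeq2 gave an adjusted p of 0.0974.

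The call of Timm17b in KO against Het rests on few animals. The limma adjusted p was 0.0601 without Het animal 1, 0.145 without Het animal 3 and 0.0257 without Het animal 2, and without any 1 KO animal the gene no longer had 3 animals at 10 or above and was not tested. In a fit of all 9 animals, where the split within WT enters the error, the adjusted p was 1. Pqbp1, which starts 88 bases away on the other strand, was at 0, 29.9 and 24.1 in WT, 0, 31.7 and 29.6 in Het and 20.6, 31.9 and 33.1 in KO, and so was at 0 in WT animal 1 and Het animal 1 but not in Het animals 2 and 3. The overlapping gene Gm10491 was listed at 0 in all animals.

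Timm17a, the paralog of Timm17b, showed no such split. It was at 134, 288 and 253 in WT, 325, 239 and 233 in Het and 285, 255 and 271 in KO. Het animal 1 lay above the KO range and Het animals 2 and 3 just under it. The log2 fold change of Timm17a in KO against Het was 0.04 ± 0.18 (95% interval -0.40 to 0.49, limma adjusted p = 0.996).

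Timm23, the channel of the complex, was at 50.8, 129 and 112 in WT, 115, 5.59 and 127 in Het and 119, 114 and 130 in KO. Het animal 2 stands alone with 6 reads, 9.09-fold under the next, and the other animals overlap. Its log2 fold change in KO against Het was 1.40 ± 1.14 (limma adjusted p = 0.973). Parg, which begins 51 bases from the start of Timm23 on the other strand, was also uneven, at 7.43, 97.4 and 11.6 in WT, 1.89, 10.2 and 116 in Het and 6.01, 181 and 12.5 in KO, but its high animals are not the low animal of Timm23. Timm50, the receptor of the complex, ran from 48.2 to 83.0 in 8 animals and was at 137 in WT animal 1. Timm21, which links the complex to TOM, ran from 43.5 to 80.3.

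**Figure D3:**
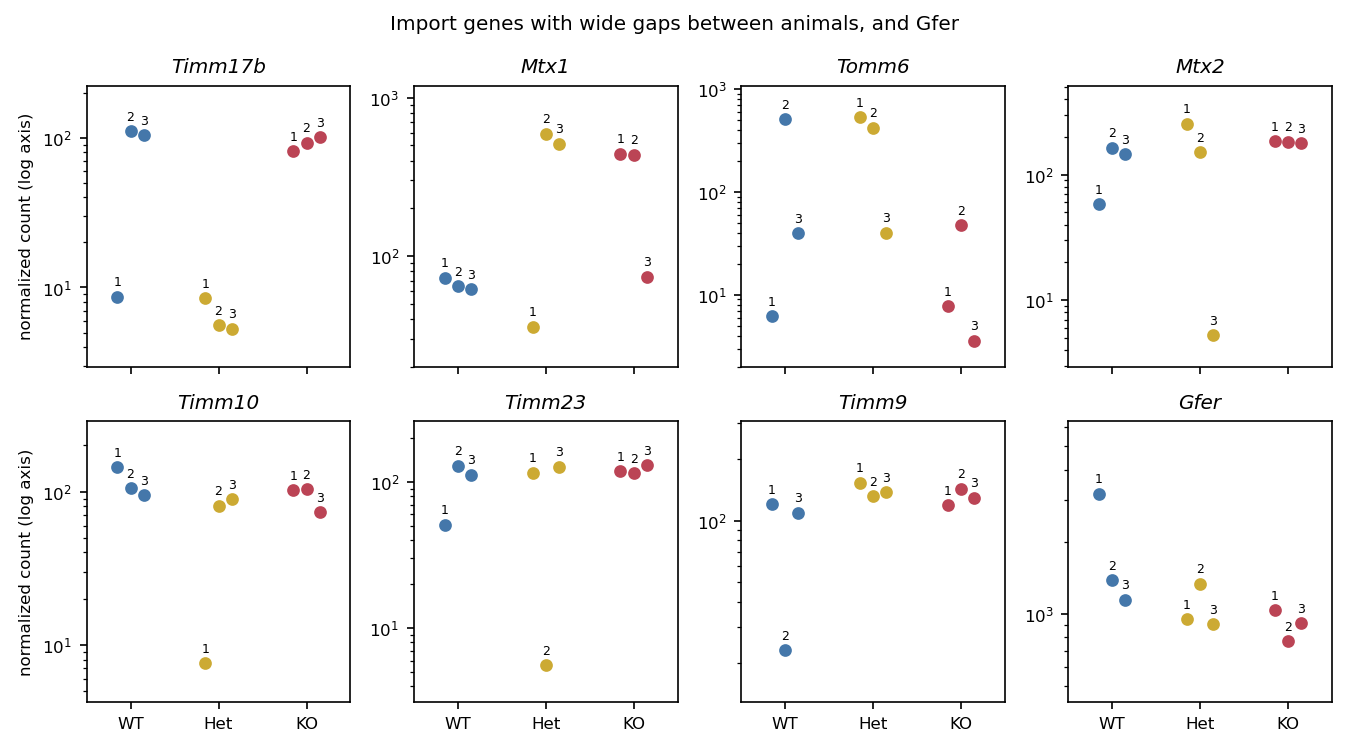
Normalized counts (y axes, logarithmic) of 7 import genes with wide gaps between animals, and of Gfer, for each animal by genotype (x axes; the number above each point is the animal). Timm17b is low in all 3 Het animals and in WT animal 1, Mtx1 is low in all 3 WT animals, and Mtx2, Timm10, Timm23 and Timm9 each have 1 animal far under the rest.

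The motor pulls proteins into the matrix. Pam16, which regulates the Hsp70 cycle, ran from 603 to 967 in 8 animals and was at 1258 in WT animal 1, and Timm44, which tethers Hsp70 to the channel, ran from 114 to 203. Dnlz, a chaperone that keeps mitochondrial Hsp70 soluble, was at 22.3, 69.5 and 57.0 in WT, 37.8, 59.6 and 47.6 in Het and 61.8, 13.5 and 38.4 in KO. Its lowest animals were KO animal 2 and WT animal 1, and KO against WT gave a log2 fold change of -0.47 ± 0.67 (limma adjusted p = 0.782). Dnlz overlaps Gpsm1 on the opposite strand over 117 bases at their 3′ ends. Gpsm1 was at 50.8, 28.9 and 30.9 in WT, 3.78, 36.3 and 41.3 in Het and 39.5, 73.5 and 42.0 in KO, highest in the same 2 animals. Whether reads were shared between these genes was not tested.

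The nucleotide exchange factors of mitochondrial Hsp70 are the paralogs Grpel1 and Grpel2. Grpel1 was at 251, 398 and 267 in WT, 362, 237 and 250 in Het and 298, 331 and 247 in KO. Grpel2 was at 23.5, 22.2 and 33.8 in WT, 40.6, 26.1 and 30.7 in Het and 38.7, 33.9 and 39.3 in KO, so that every KO animal was above every WT animal, the nearest by less than 1 normalized count. Such a separation was seen for 9.41% of all genes tested. Neither Grpel1 nor Grpel2 passed in KO against WT, with log2 fold changes of -0.05 ± 0.25 and 0.50 ± 0.27 (limma adjusted p = 0.953 and 0.629).

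Within a genotype, the highest animal was more than 4-fold over the lowest for 10 of the 32 import genes, Tomm22, Tomm6, Mtx1, Mtx2, Timm9, Timm10, Timm13, Timm23, Timm17b and Dnlz, where 27% of all 14165 genes did so. Without WT animal 1 these were 7 genes (Tomm22, Timm13 and Timm17b drop out) and 19.3% of all genes. The low animal was not the same from gene to gene: Het animal 1 for Timm10, Het animal 2 for Timm23, Het animal 3 for Mtx2 and WT animal 2 for Timm9. Pairs of animals of 1 genotype were also compared over the 10653 to 11531 genes with enough reads in the pair. Of these genes, 31.4% to 64.8% differed by more than 2 SD of counting error. The cause of these gaps was not tested.

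Import partners that the names above do not cover were given by a list of 21 genes, such as the motor Hsp70 Hspa9 and the presequence peptidase subunits Pmpca and Pmpcb, all of which were tested. With limma and with DESeq2, 0 of 21 were called in each comparison, beside at most 0.0558% and 0.651% of all genes, so calls in a list of this size would be rare at the background share. In KO against WT, 13 were higher and 8 lower, with a median log2 fold change of 0.13, and only Agk had an unadjusted p under 0.05 (8.07% of all genes). Agk, a lipid kinase that is also a subunit of TIM22, was at 17.3, 11.6 and 17.4 in WT, 23.6, 13.0 and 16.9 in Het and 24.9, 43.5 and 25.9 in KO, with a log2 fold change of 0.96 ± 0.36 (limma unadjusted p = 0.0348, adjusted p = 0.610). In Het against WT and in KO against Het, 0 of the 21 had an unadjusted p under 0.05 (3.34% and 3.56% of all genes).

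Of these 21 partners, 5 were more than 4-fold apart within a genotype, beside 27% of all genes. Pmpcb was at 45.8 in WT animal 1 and at 776 to 1402 in the others. Hspa8, the cytosolic chaperone, was at 14.9, 341 and 278 in WT, 497, 299 and 9.52 in Het and 12.0, 531 and 342 in KO, with 1 low animal in each genotype. Aifm1, which brings Chchd4 to the inner membrane, was listed at 0 in WT animal 1 and at 23.3 to 52.0 elsewhere. Romo1, a small TIM23 subunit, was listed at 0 in Het animal 1 and at 52.9 to 126 elsewhere. Dnajc11 ran from 12.4 to 102.

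Substrates of the disulfide relay and related small proteins with paired cysteines were given by a list of 20 genes, of which 19 were tested and Cox17 was not analysed here. Limma called 0 in each comparison. DESeq2 called 1, Cmc2, in KO against WT (0.651% of all genes) and in KO against Het (0.233%), and 0 in Het against WT (0.184%). At an unadjusted limma p under 0.05, KO against WT had Ndufb7 and Cmc2 (8.07% of all genes), Het against WT had Ndufb7 (3.34%) and KO against Het had Cox6b2 and Cmc2 (3.56%), all lower in the first of the genotypes compared.

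Cmc2, a small protein of the intermembrane space linked to cytochrome c oxidase assembly, was at 246, 190 and 96.6 in WT, 109, 209 and 114 in Het and 29.2, 28.1 and 38.4 in KO. All 3 KO animals were below all 6 others, and WT and Het overlapped. Of all genes tested, 10.5% had every KO animal below every WT animal and 4.9% below every Het animal. The log2 fold change was -2.35 ± 0.39 in KO against WT (limma unadjusted p = 7.66e-04, adjusted p = 0.349; DESeq2 adjusted p = 1.07e-04) and -2.09 ± 0.31 in KO against Het (limma unadjusted p = 4.46e-04, adjusted p = 0.356; DESeq2 adjusted p = 1.64e-04). The edgeR adjusted p was 0.357 and 0.410, so the call depends on the tool. Leaving out any 1 animal kept the log2 fold change between -2.74 and -2.07 in KO against WT and between -2.25 and -1.79 in KO against Het. The summed round spermatid markers were also lower in the 3 KO animals and Het animal 1 (2352 to 4018) than in the other 5 animals (4606 to 6335). Tssk2 and Catsper3 split in this way, while Acrv1 and Spaca1 overlapped between these groups of animals. The part of these markers in the Cmc2 values was not tested.

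Ndufb7, a subunit of respiratory complex I, was at 834, 671 and 497 in WT, 279, 494 and 337 in Het and 496, 328 and 405 in KO, with log2 fold changes of -0.69 ± 0.27 in KO against WT and -0.86 ± 0.30 in Het against WT (limma adjusted p = 0.610 and 0.779). The WT animals were all above the others, the lowest by less than 2 normalized counts. Every KO animal was below every WT animal for 10.5% of all genes tested, and every Het animal for 6.49%. Cox6b2, the testis form of a cytochrome c oxidase subunit, was at 1879, 831 and 890 in WT, 923, 914 and 1182 in Het and 733, 632 and 701 in KO, with a log2 fold change of -0.54 ± 0.16 in KO against Het (limma adjusted p = 0.973). In this list 4 of 19 genes, Cox19, Cmc1, Chchd3 and Chchd5, were more than 4-fold apart within a genotype (27% of all genes). Chchd3, a subunit of the complex that shapes cristae, was at 92.9, 508 and 449 in WT, 200, 440 and 177 in Het and 551, 212 and 547 in KO.

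**Figure D4:**
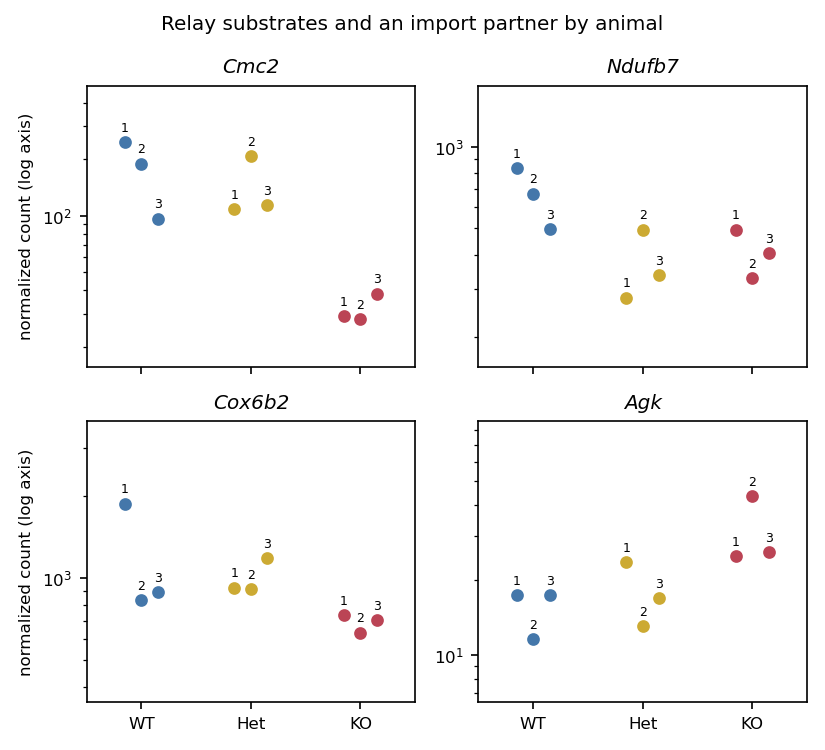
Normalized counts (y axes, logarithmic) of 3 relay substrates, Cmc2, Ndufb7 and Cox6b2, and of the TIM22 partner Agk, for each animal by genotype (x axes; the number above each point is the animal). The KO animals are the 3 lowest for Cmc2, between 28.1 and 38.4, and for Cox6b2, and the 3 highest for Agk. Of all genes tested, 10.5% had every KO animal below every WT animal and 9.41% above. Against Het these shares were 4.9% and 5.12%.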

How the data were processed

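RNA of 9 testes was sequenced as 50-base 3′ reads (QuantSeq). Per the submitters' processing notes and the methods of the study, the authors trimmed with Trim Galore 0.4.5, aligned with HISAT2 2.1 to GRCm38, assembled and counted with StringTie 1.3.3, removed pseudogenes and normalised with DESeq2. The deposited signal values are counts per gene after division by a size factor specific to each animal. All 32 import genes with signal were counted on loci of the merged StringTie assembly. Whether this bears on the low values in single animals was not tested. The read numbers were recovered, since 100% of values above 0 in every library were whole multiples of a single step, within 0.001.

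Limma 3.58.1 (R 4.3.3, trend) was run on log2(value + 1) over all genes that reached 10 in 3 or more animals of the 2 genotypes compared, with Benjamini-Hochberg adjustment over all genes tested. It was tested on simulated data. Alternatives were DESeq2 1.42.0 and edgeR 4.0.16 on the recovered reads, TMM scaling, other filters and pseudocounts, all 9 samples, the replicate numbers as a block, each animal left out, and overlapping genes summed. Leaving WT animal 1 out of the count of genes with a wide spread was chosen after seeing the data. The p-values measure the spread between these animals only.

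The import genes and the lists were chosen with earlier results of these data known. Values in every animal are given for import genes that passed the cutoffs or an unadjusted p of 0.05, had a spread over 4 times within a genotype or form a paralog pair, and the others by their range. Genes of the partner and substrate lists of the same kinds are named, with every animal's value for those with an unadjusted p under 0.05. Gfer, Hspa8 and Chchd3 were added after their values were seen. Positions are from GENCODE M21 (GRCm38), promoters from RefSeq (GRCm38.p6). Python 3.11.15, numpy 2.4.6, pandas 2.3.3 and matplotlib 3.10.9 were used. Of the marker lists with no result in the text, the summed levels over the 9 animals were 155 to 307 for spermatogonia, 1337 to 3402 for Leydig cells, 204 to 622 for peritubular cells, 97.3 to 182 for macrophages and 509 to 865 for erythrocytes.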

Additional observations from a re-analysis of the deposited data

How the results depend on the processing

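The count of 0 import genes past the cutoffs held in KO against WT and in Het against WT under all 17 alternatives of each. Few of all genes were called in these settings, so a count of 0 among the import genes says little. In KO against WT these were 0 of 14223 genes with the replicate block, 49 of 13964 without WT animal 1 and 109 of 16737 with DESeq2. In Het against WT they were 32 of 17396 with DESeq2 and at most 3 in any other setting. In KO against Het the count of 1 fell to 0 with a filter of 30, with all 9 samples in 1 fit and with the replicate block, and ranged from 0 to 1 with each animal left out. Over all genes, 5 of 10659, 4 of 14865 and 0 of 14343 were called in the first 3 of these settings. Without any 1 KO animal Timm17b did not reach the filter, so it could not be called there. The replicate numbers share no litter or day in the labels, and the correlation of deviations between same-numbered animals ran from -0.14 to 0.19, so they were not taken to pair the animals. With the block the Timm17b adjusted p was 0.645. Its adjusted p was 0.0593 with the filter of 30 and 1 with all 9 samples.

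The number of import genes with an unadjusted p under 0.05 in KO against WT, 1 with limma, was 3 with DESeq2, 2 with edgeR under either scaling, 2 with the block, and 0 to 2 with an animal left out. Over all genes this was 1148 of 14223 with limma, 1260 of 24313 with DESeq2, 1076 and 1090 of 14223 with edgeR and 794 of 14223 with the block. With an animal left out it ran from 613 of 13869 (KO animal 2) to 1240 of 13964 (WT animal 1). In Het against WT, 0 with limma became 2 with DESeq2, 1 with edgeR under either scaling, 1 with no filter, 1 with all 9 samples, and 0 to 1 with an animal left out. Over all genes this was 475 of 14216 with limma, 520 of 23929 with DESeq2 and 416 and 410 of 14216 with edgeR. It was 791 of 24069 with no filter and 853 of 14865 with all 9 samples. With an animal left out it ran from 182 of 13892 (Het animal 1) to 745 of 13763 (Het animal 2). In KO against Het the number of import genes was 0 to 3 with an animal left out. Over all genes it ran there from 311 of 13968 (KO animal 1) to 724 of 14012 (Het animal 1). The median log2 fold change in KO against WT ranged from -0.077 without WT animal 1 to 0.38 without KO animal 2. The directions of Timm17b and Tomm6 in KO against Het and of Mtx1 in KO against WT were the same under all alternatives that gave a value. Outside these, Timm17b in KO against WT turned to -0.23 without WT animal 1, and Mtx1 in KO against Het to between -1.18 and -0.23 with DESeq2, with edgeR and without Het animal 1, KO animal 1 or KO animal 2. Where neither fewer samples nor fewer genes entered the fit, the cause of these shifts was not tested. Depth limits the lowest values of Timm17b, Mtx2, Timm10, Timm23 and Tomm6, which rest on 4 to 9 reads.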
